A study of Mus musculus with 10 samples.

Results

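Mesoderm cells that will form the heart pass through a stage at which they carry the receptors Kdr (also called Flk1) and Pdgfra on their surface, and a fraction of these cells also turn on Foxa2, a forkhead pioneer transcription factor best known from endoderm, node and midline. Foxa2 is a nuclear protein, so living cells cannot be sorted by it without a reporter. Surface proteins whose genes are higher in cardiac mesoderm with Foxa2 are candidate markers, though only RNA was measured here. The 7 genes described here, Dpp4, Fam83b, Atp1b1, Lgals3bp, Cnnm1, Rgs16 and Slc35g2, were picked from RNAseq of sorted cells because their counts were strongly and steadily higher in cardiac mesoderm (CM) with Foxa2 than in CM without it. They are 7 of the 38924 genes listed, and all 7 had a value in every sample. Since that difference chose them, it is given below as a description and carries no test.

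All 10 samples came from 1 mouse embryonic stem cell (mESC) line, Foxa2-hCD4, in which a truncated human CD4 is made from the Foxa2 locus and serves as a surface tag for Foxa2. Cells were sorted on day 5 of differentiation. Foxa2+ CM (3 samples) was positive for Kdr, Pdgfra and hCD4, and Foxa2- CM (3 samples) was positive for Kdr and Pdgfra but not for hCD4. Haematopoietic mesoderm (2 samples), which the labels call Flk1+ high, was sorted on Kdr from the same cardiac protocol, with Activin A at 8 ng/ml, BMP4 at 1 ng/ml and VEGF at 5 ng/ml. Endoderm (2 samples) came from a protocol with Activin A at 75 ng/ml and was hCD4+ and negative for both receptors. Nothing in the labels says that samples of a group were separate cultures, so p-values measure the spread between these samples only. In bulk samples, fewer cells that make an RNA and less of it per cell cannot be told apart.

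Each sample held between 10926284 and 17470126 counts on genes, where 3 counts correspond to 0.172 to 0.275 CPM (counts scaled by the library total, the unit of expression used here). Foxa2 itself, the gene behind the sort, was at 20.0, 16.0 and 3.50 CPM in Foxa2+ CM replicates 1, 2 and 3, against 2.54, 0.873 and 0.903 CPM in Foxa2- CM. It was at 186 and 183 CPM in endoderm and at 0.690 and 0.788 CPM in haematopoietic mesoderm. Foxa2 RNA in Foxa2+ CM replicate 3 was thus near the highest Foxa2- CM sample. The summed CPM of 12 definitive endoderm markers was 435 to 489 in Foxa2+ CM, 421 to 449 in Foxa2- CM and 1796 to 1986 in endoderm. Of these 12 genes, Sox17 and Trh passed the test as higher in Foxa2+ CM and none as lower. Sox17 was at 27.7, 23.3 and 19.8 CPM in Foxa2+ CM and at 4.64, 3.18 and 8.58 CPM in Foxa2- CM. Sox17 was at 105.01 and 177.4 CPM in endoderm and at 25.3 and 21.03 CPM in haematopoietic mesoderm. Trh was at 33.04, 38.4 and 34.6 CPM in Foxa2+ CM and at 15.98, 18.4 and 23.8 CPM in Foxa2- CM. Trh was at 201.6 and 204.9 CPM in endoderm and at 44.2 and 24.9 CPM in haematopoietic mesoderm. Cer1 was at 0.366, 0.752 and 1.30 CPM in Foxa2+ CM and at 0.743, 1.11 and 0.790 CPM in Foxa2- CM. Foxa1 was lower in Foxa2+ CM, at 1.02, 1.27 and 0.846 CPM against 1.86, 1.98 and 1.98 CPM, without passing the test. In endoderm Cer1 averaged 228.9 CPM and Foxa1 64.6 CPM. The other markers of this list are given only in the sum. The sums of 10 haematopoietic and endothelial markers overlapped between the CM groups (491 to 647 against 383 to 616 CPM), with Lmo2 higher in Foxa2+ CM, and those of 8 cardiac mesoderm markers were lower in Foxa2+ CM (1063 to 1265 against 1314 to 1456 CPM), with Nkx2-5 higher and Mesp1 and Hand1 lower. Sums of 9 visceral endoderm markers were 19.0 to 47.7 against 7.94 to 44.7 CPM, of 6 axial mesoderm markers 69.1 to 90.2 against 48.8 to 91.3 CPM, and of 6 pluripotency and epiblast markers 77.6 to 112 against 86.5 to 134 CPM. The part of these cells in the members' values was not tested.

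The proteins of the 7 genes sit at the cell surface, in membranes, outside the cell or inside it. Dpp4 (also known as CD26) and Atp1b1 are at the cell surface: Dpp4 is a peptidase that cuts short peptides from the ends of chemokines and hormones, and Atp1b1 is the beta 1 subunit of the sodium-potassium pump, needed to bring the catalytic alpha subunit to the membrane. Cnnm1 is a membrane protein of a family linked to magnesium transport, and Slc35g2 is a membrane protein of the nucleotide sugar transporter superfamily. Lgals3bp is a secreted glycoprotein that binds galectins. Rgs16 and Fam83b are inside the cell: Rgs16 speeds the switching off of Gi and Gq type G proteins, and Fam83b belongs to a family of scaffolds for casein kinase 1 and has been tied to signalling from the EGF receptor.

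All 7 genes are protein-coding in GENCODE M21 and lie on 5 chromosomes of the mouse genome (mm10). Dpp4 is at chr2:62330073-62412231 on the minus strand, Fam83b at chr9:76490054-76567116 (minus), Atp1b1 at chr1:164437109-164458355 (minus) and Lgals3bp at chr11:118392751-118402092 (minus). Cnnm1 is at chr19:43440436-43497210 (plus), Rgs16 at chr1:153740349-153745468 (plus) and Slc35g2 at chr9:100552188-100571090 (minus). Read counting covered the exons, which span between 1590 bases in Slc35g2 and 6319 bases in Dpp4. Atp1b1 shares 575 exonic bases with Nme7 on the other strand, and reads there cannot be assigned because the library kit kept no strand. Nme7 itself had similar CPM in both CM groups (33.8 and 34.9), with a log2 fold change of -0.04 (SE 0.07).

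The sequences just before the start sites differ in kind between the members, and 3 are shown as examples: Dpp4 has few CpG pairs, Atp1b1 has the most of the 7, and Slc35g2 holds the single match to a forkhead motif, the motif class bound by Foxa2. They are RefSeq promoter windows of GRCm38.p6 (the mm10 build), cut where the annotated gene begins, with motif matches in capitals.
Dpp4, chr2:62412232-62412481, minus strand: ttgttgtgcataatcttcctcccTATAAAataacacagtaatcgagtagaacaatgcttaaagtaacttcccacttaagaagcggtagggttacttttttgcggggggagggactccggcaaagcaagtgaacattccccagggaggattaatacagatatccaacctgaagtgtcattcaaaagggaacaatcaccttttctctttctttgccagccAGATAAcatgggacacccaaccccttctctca
Atp1b1, chr1:164458356-164458605, minus strand: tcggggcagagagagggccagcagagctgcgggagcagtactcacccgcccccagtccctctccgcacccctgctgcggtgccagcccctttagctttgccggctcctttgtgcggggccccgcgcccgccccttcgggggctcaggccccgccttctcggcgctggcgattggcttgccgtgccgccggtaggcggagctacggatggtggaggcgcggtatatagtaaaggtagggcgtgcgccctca
Slc35g2, chr9:100571091-100571335, minus strand: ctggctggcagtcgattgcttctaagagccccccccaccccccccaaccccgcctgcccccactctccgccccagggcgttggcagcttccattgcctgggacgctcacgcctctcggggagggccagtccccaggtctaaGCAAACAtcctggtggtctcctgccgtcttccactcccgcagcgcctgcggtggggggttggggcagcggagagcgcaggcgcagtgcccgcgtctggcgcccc

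Over windows of 300 bases (250 before the start and 50 after it), Dpp4 held 4 CpG pairs and Lgals3bp 3, against 30 in Fam83b, 31 in Atp1b1, 21 in Cnnm1, 22 in Rgs16 and 22 in Slc35g2. The median over 32851 windows was 7, so 5 of the 7 members lay well above it and 2 below it. Both strands were searched for the forkhead motifs TGTTTAC (held by 3.65% of all windows), TGTTTAT (held by 4.60%) and TGTTTGC (held by 5.07%). Slc35g2 held the last of these in reverse (GCAAACA, first base 109 bases before the start), and the other 6 members held none. The GATA motif AGATAA was in 11.2% of all windows and in Dpp4 alone among the members, 32 bases before the start. Dpp4 was also the member with a TATAAA (13.6% of all windows), far from the start at 227 bases before it. TGATAA (9.05% of windows) was in no member. A match is a string of letters and was not tested as a binding site.

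Dpp4 had the clearest gap of the surface proteins. It was at 18.2, 18.3 and 14.0 CPM in Foxa2+ CM replicates 1 to 3 and at 1.55, 1.59 and 3.61 CPM in Foxa2- CM. Every Foxa2+ CM sample lay at least 3.87-fold above every Foxa2- CM sample. The smallest gap was between the 2 samples numbered 3, the lowest in Foxa2+ CM and the highest in Foxa2- CM. Among Foxa2+ CM samples, Foxa2 was also lowest in replicate 3, as were Fam83b, Lgals3bp, Cnnm1 and Slc35g2, but not Atp1b1 or Rgs16. The log2 fold change was 2.87 (SE 0.33), the eighth largest among the 15284 genes compared. In absolute terms Dpp4 RNA was scarce, at 2.67 ± 0.39 RPKM (CPM divided by exonic length in kilobases; SD, n = 3) in Foxa2+ CM. Endoderm held 2.33 and 7.86 CPM and haematopoietic mesoderm 1.88 and 4.57 CPM, so these groups overlapped each other and Foxa2- CM.

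Atp1b1 was at 46.0, 49.0 and 46.2 CPM in Foxa2+ CM and at 11.7, 11.03 and 15.2 CPM in Foxa2- CM. The coefficient of variation (SD over mean) within Foxa2+ CM was 3.50%, and its lowest sample lay 3.02-fold above the highest Foxa2- CM sample. The log2 fold change was 1.89 (SE 0.13). Endoderm was next in order, at 26.4 and 38.5 CPM, followed by haematopoietic mesoderm, at 24.8 and 11.9 CPM, whose lower sample lay within the Foxa2- CM range. The nearest sample outside Foxa2+ CM was endoderm replicate 2, with 38.5 CPM against 46.0 CPM in the lowest Foxa2+ CM sample.

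Lgals3bp was the most abundant member in CPM in Foxa2+ CM. It was at 91.3, 97.0 and 87.5 CPM there and at 27.1, 26.2 and 34.1 CPM in Foxa2- CM. Its log2 fold change was 1.65 (SE 0.11), which was also the median of the 7 members, against -0.00 over all genes. Endoderm had little, at 4.75 and 6.86 CPM, and haematopoietic mesoderm was at 25.7 and 47.0 CPM, a range that holds all 3 Foxa2- CM samples.

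Cnnm1 was at 59.5, 60.7 and 53.8 CPM in Foxa2+ CM and at 22.9, 22.0 and 18.6 CPM in Foxa2- CM, with a log2 fold change of 1.46 (SE 0.10). It was the member nearest to absent from endoderm, at 2.33 and 1.00 CPM (25 and 12 counts). Haematopoietic mesoderm was intermediate at 10.4 and 15.1 CPM, below every CM sample. The 4 groups did not overlap in the order Foxa2+ CM, Foxa2- CM, haematopoietic mesoderm and endoderm.

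Slc35g2 had the smallest difference and the smallest spread. It was at 61.4, 62.0 and 60.5 CPM in Foxa2+ CM and at 29.5, 31.4 and 32.2 CPM in Foxa2- CM, with coefficients of variation of 1.25% and 4.56%. The log2 fold change was 0.98 (SE 0.07), or 1.98-fold. Per length it was the most abundant of the 7 in Foxa2+ CM, at 38.5 ± 0.48 RPKM (SD, n = 3), ahead of Lgals3bp at 32.3 ± 1.68 and Rgs16 at 20.7 ± 1.11 RPKM. Haematopoietic mesoderm was uneven, at 20.7 and 54.1 CPM, with 1 sample below and 1 above all Foxa2- CM samples, and endoderm was at 6.15 and 14.6 CPM. Slc35g2 and Lgals3bp exceeded 0.5 counts per exonic base in at least 1 sample (up to 0.674), where removal of duplicate reads can hold counts down.

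Rgs16 was the 1 member with endoderm above Foxa2+ CM. It was at 45.3, 49.7 and 49.97 CPM in Foxa2+ CM and at 17.0, 18.3 and 19.9 CPM in Foxa2- CM, with a log2 fold change of 1.39 (SE 0.10). Endoderm was higher still, at 57.3 and 62.9 CPM, and haematopoietic mesoderm was low, at 5.40 and 7.01 CPM. All 4 groups were separate from each other, with endoderm at the top. An overlapping predicted gene, Gm28513, shares 236 exonic bases with Rgs16 in the annotation.

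Fam83b had the largest fold change and the fewest reads. It was at 8.11, 10.9 and 5.98 CPM in Foxa2+ CM and at 0.743, 1.11 and 1.02 CPM in Foxa2- CM, where 12 to 18 counts stood behind each value. The log2 fold change was 3.12 (SE 0.30), or 8.72-fold, the fourth largest of all genes compared. Its lowest Foxa2+ CM value was in replicate 3, as for Dpp4, Lgals3bp, Cnnm1 and Slc35g2. Atp1b1 was lowest in replicate 1, and Rgs16 was highest in replicate 3. Endoderm lay between the CM groups at 3.45 and 4.18 CPM, and haematopoietic mesoderm was lowest at 0.251 and 0.630 CPM (4 and 8 counts), with no overlap between groups.

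**Figure D1:**
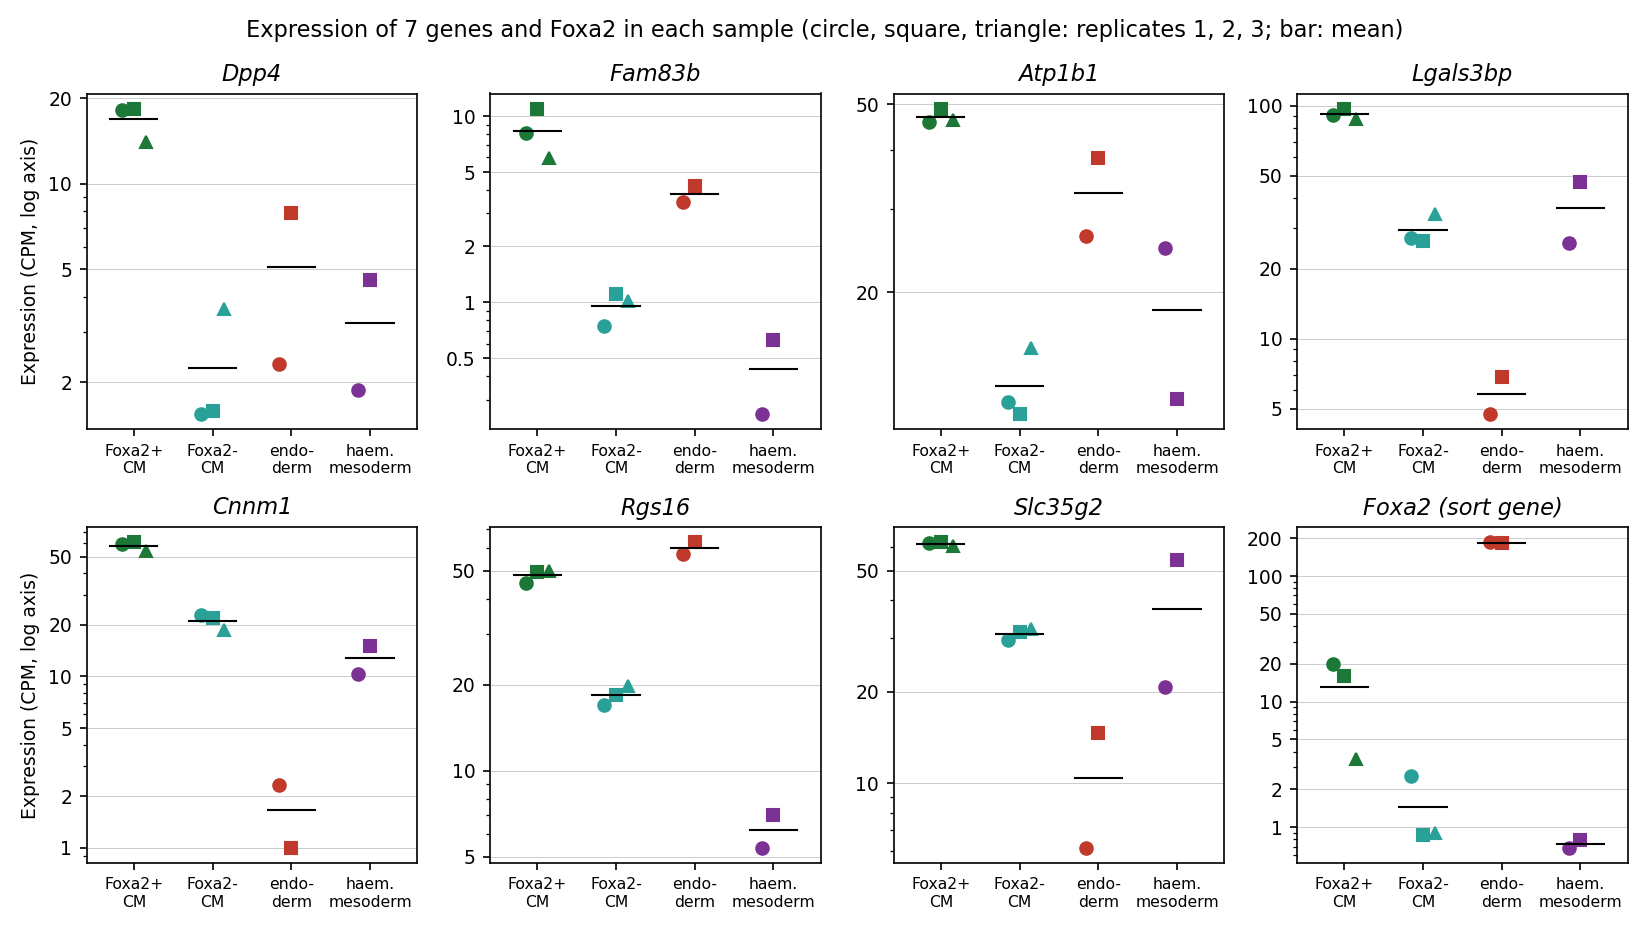
Expression in CPM (log axis, with a scale of its own for each gene) of the 7 genes and of Foxa2 in each of the 10 samples, with circles, squares and triangles for replicates 1, 2 and 3 and a bar at each group's mean. For each of the 7 genes the 3 Foxa2+ CM samples lie above the 3 Foxa2- CM samples, and Rgs16 is the 1 member with endoderm (57.3 and 62.9 CPM) above Foxa2+ CM.

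Because the choice of genes used this difference, the number of members that show it says nothing about them. For orientation, 6.48% of the 15284 genes compared between the CM groups passed edgeR's test at an adjusted p under 0.05 (3.81% higher and 2.66% lower in Foxa2+ CM), and in 13.6% all Foxa2+ CM samples lay above all Foxa2- CM samples. The choice had no numeric limit. Of genes averaging 50 counts or more, 58 others had a fold change and a gap between groups at least as large as the smallest values among the members (log2 fold change 0.98, and 1.88-fold between the nearest samples). In 6 of the 7 members, all but Rgs16, every Foxa2+ CM sample was also above every endoderm and haematopoietic mesoderm sample, a pattern held by 4.96% of 16180 genes and in part set by the choice. With 1 CM sample left out, the median log2 fold change over the 7 members was 1.58 to 1.80, and that of Dpp4, which had the widest range, was 2.63 to 3.43. The choice of steady genes bears on these ranges, which are descriptions.

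**Figure D2:**
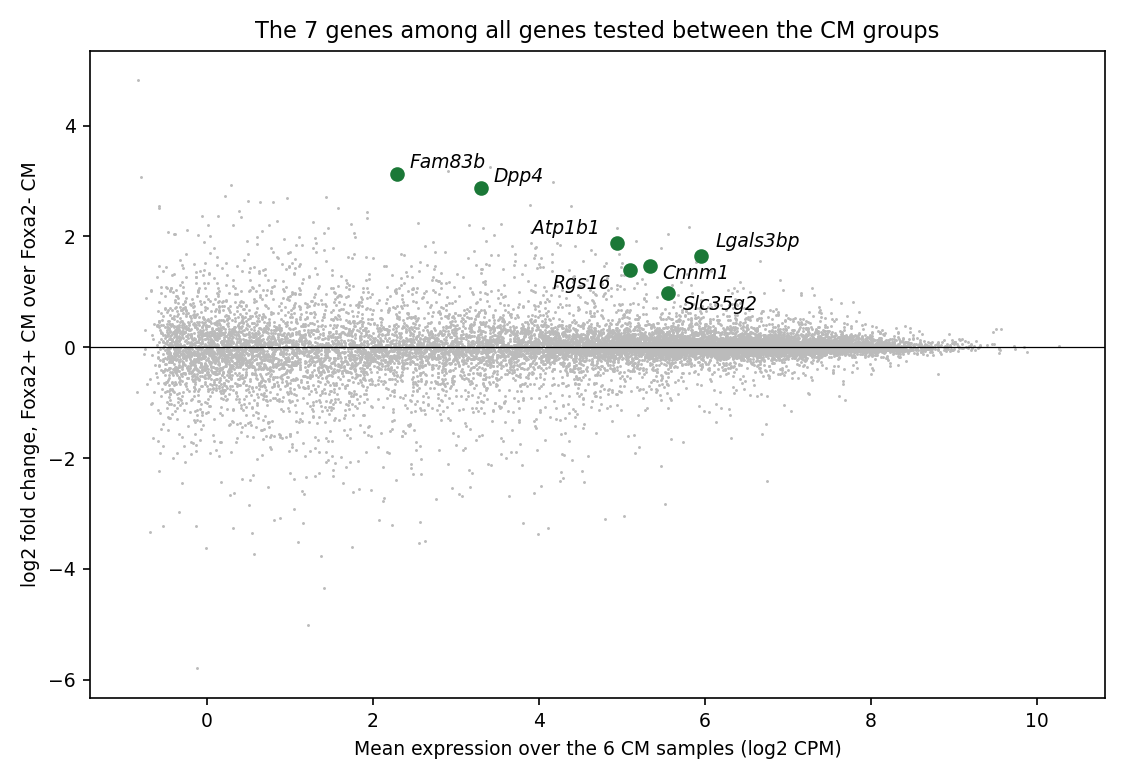
Log2 fold change of Foxa2+ CM over Foxa2- CM against mean expression over the 6 CM samples (log2 CPM) for 15284 genes (grey), with the 7 members in green. Fam83b and Dpp4 have large fold changes (3.12 and 2.87) at low expression, and the other 5 have smaller ones (0.98 to 1.89) at higher expression.

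Endoderm and haematopoietic mesoderm took no part in the choice, so the comparison between them was tested. It asks whether genes chosen within CM share a pattern in a Foxa2-rich population and in another mesoderm. The spread in this test came from all 10 samples, among them the CM samples in which the members were chosen as steady. The SEs and p-values of the members are therefore not free of the choice. The members split. Fam83b and Rgs16 were higher in endoderm, Lgals3bp, Cnnm1 and Slc35g2 were higher in haematopoietic mesoderm, and Dpp4 and Atp1b1 did not pass. The 5 of 7 members called at an adjusted p under 0.05 stand beside 32.6% of the 16180 genes tested (16.4% higher in endoderm and 16.2% higher in haematopoietic mesoderm). Samples of the 2 groups did not overlap in 6 of 7 members and in 62.6% of all genes tested. In a fit of those 4 samples alone, Slc35g2 did not pass. The edgeR adjusted p there was 0.00221 for Rgs16, 0.0161 for Lgals3bp, 0.0213 for Fam83b and 0.0242 for Cnnm1.

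Rgs16 rose most, with a log2 fold change of endoderm over haematopoietic mesoderm of 3.28 (SE 0.16, adjusted p = 2.339e-06, by the quasi-likelihood test of edgeR, adjusted by the Benjamini-Hochberg method as for all adjusted p-values here). Fam83b was also higher in endoderm, with a log2 fold change of 3.14 (SE 0.47, edgeR adjusted p = 0.000989), from 37 and 50 counts in endoderm.

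Cnnm1 was lower in endoderm, with a log2 fold change of -2.94 (SE 0.32, edgeR adjusted p = 0.000168). Lgals3bp was lower too, at -2.64 (SE 0.29, edgeR adjusted p = 0.00019). These calls, and those of Rgs16 and Fam83b, held with each of the 4 endoderm and haematopoietic mesoderm samples left out in turn. Slc35g2 was lower at -1.83 (SE 0.44, edgeR adjusted p = 0.0111), but its call ended without endoderm replicate 1 (adjusted p = 0.0715), without haematopoietic mesoderm replicate 2 (log2 fold change -0.99, adjusted p = 0.0639) and in a fit of the 4 samples alone (adjusted p = 0.110).

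Atp1b1 had a log2 fold change of 0.81 (95% interval 0.11 to 1.52, edgeR adjusted p = 0.0743), and without haematopoietic mesoderm replicate 1 it passed at 1.44 (edgeR adjusted p = 0.0033). Dpp4 had a log2 fold change of 0.68 (95% interval -0.70 to 2.07, edgeR adjusted p = 0.441), which turned to -0.45 without endoderm replicate 2. For both surface proteins the interval leaves room for differences over 2-fold. Beside Foxa2+ CM, endoderm was lower by a log2 fold change of -5.13 in Cnnm1, -3.98 in Lgals3bp, -2.55 in Slc35g2, -1.71 in Dpp4, -1.13 in Fam83b and -0.54 in Atp1b1, and higher by 0.31 in Rgs16. Haematopoietic mesoderm was below Foxa2+ CM in all 7, from -0.72 in Slc35g2 to -4.26 in Fam83b. These values share the samples that chose the genes and are descriptions.

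**Figure D3:**
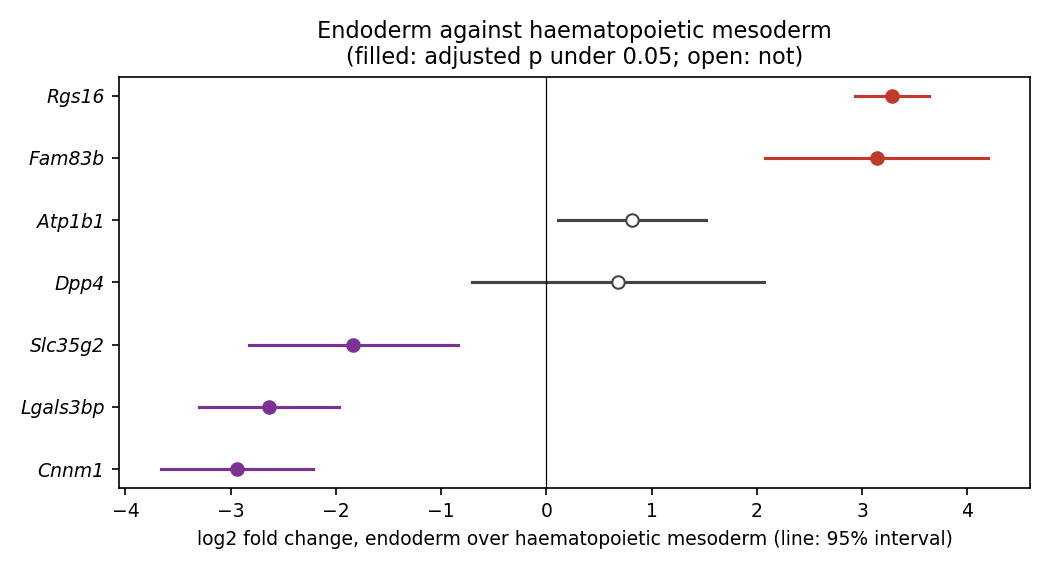
Log2 fold change of endoderm over haematopoietic mesoderm for the 7 genes, with points at the estimate and lines for the 95% interval. Filled points have an adjusted p under 0.05: Rgs16 and Fam83b lie to the right (3.28 and 3.14), Slc35g2, Lgals3bp and Cnnm1 to the left (-1.83, -2.64 and -2.94), and Atp1b1 and Dpp4 (open) lie between.

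Correlations between members are given as a description of the same group levels. Over the 10 samples, log2 CPM of Lgals3bp and Slc35g2 had a Pearson r of 0.963, Lgals3bp and Cnnm1 0.944, and Cnnm1 and Slc35g2 0.868. Fam83b and Rgs16 had an r of 0.908, and Dpp4 had 0.832 with Fam83b and 0.814 with Atp1b1. The lowest was -0.128, between Rgs16 and Slc35g2. The 10 points share their 4 groups and their libraries, and each r is a description.

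Over 12133 genes averaging 50 counts or more, those most like each member were ranked by the same r over the 10 samples. Lgals3bp was closest to Slc24a3 (0.997) and Ampd3 (0.986), Cnnm1 to Rnf128 (0.992) and Cpne8 (0.990), and Slc35g2 to Syde2 (0.978) and P3h1 (0.969). Slc24a3, for one, averaged 48.9 CPM in Foxa2+ CM, 10.8 in Foxa2- CM, 0.958 in endoderm and 13.6 in haematopoietic mesoderm. Rgs16 was closest to Kif1a (0.976) and Stk32a (0.966), Fam83b to Tbc1d1 (0.968) and Rbpj (0.966), Dpp4 to Lima1 (0.969) and Pawr (0.947), and Atp1b1 to Fbxo16 (0.948) and Adam9 (0.946). The number of genes with an r over 0.9 was 15 to 19 for Atp1b1, Fam83b and Dpp4, 68 for Rgs16, and 176 to 250 for Slc35g2, Lgals3bp and Cnnm1.

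Of the 14 nearest tested genes on either side of the members, 2 were higher in Foxa2+ CM, none was lower, and 12 did not pass. Of all 15284 genes, 3.81% were higher and 2.66% lower. Rgs8, 40026 bases from Rgs16, had a log2 fold change of 1.78 (SE 0.27, edgeR adjusted p = 0.0103). It was at 3.14, 4.75 and 4.46 CPM in Foxa2+ CM, against 0.991, 1.03 and 1.52 CPM in Foxa2- CM, 39.5 and 79.1 CPM in endoderm and 0.188 and 0.158 CPM in haematopoietic mesoderm, the group order of Rgs16. Hpse2, 52081 bases from Cnnm1, averaged 1.39 against 0.448 CPM in the 2 CM groups (log2 fold change 1.62, SE 0.39, edgeR adjusted p = 0.0489). Its Foxa2- CM mean was low, since 3 counts correspond to 0.172 to 0.275 CPM. The genes beside Slc35g2 (Nck1, Stag1), Atp1b1 (Nme7, Sft2d2) and Fam83b (Hmgcll1, Lrrc1) had log2 fold changes between -0.30 and 0.20. Beside Dpp4, Ifih1 was at 0.55 (SE 0.25) and Tbr1 at -0.07 (SE 0.33), and neither passed. Got1 beside Cnnm1 was at 0.10 and Glul beside Rgs16 at 0.02. Timp2, beside Lgals3bp, was at 0.26 (SE 0.15) and did not pass. Cant1, 4197 bases from Lgals3bp, was at 0.20 (SE 0.05, edgeR adjusted p = 0.0642).

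The relatives and partners of the members were then taken from lists of 10 protein families and pathways. Of 134 such genes taken up, 102 were tested between the CM groups, with 7 higher and 4 lower in Foxa2+ CM (10.8%, beside 6.48% of all genes) and a median log2 fold change of 0.00. Each list is described by these counts, and no list was tested as a set. All 11 calls kept their direction with each of the 6 CM samples left out, but only Fxyd2 and Atp1b2 kept an adjusted p under 0.05 in all 6 of those fits. Calls ended without Foxa2+ CM replicate 2 (Cxcl12 and Rgs6), without that sample or Foxa2- CM replicate 2 (Rgs8), without either of these or Foxa2- CM replicate 1 (Egfr and Rgs4), and without either of these or Foxa2+ CM replicate 1 (Gnao1). They ended without any 1 of the other 5 samples than Foxa2+ CM replicate 3 (Npy) or than Foxa2- CM replicate 3 (Lgalsl and Gnai1). In those fits the edgeR adjusted p was 0.0501 to 0.184. With all 6 CM samples, the 11 calls kept an adjusted p under 0.05 in an edgeR model with a replicate term and in DESeq2. In a model of all 10 samples, Cxcl12, Atp1b2 and Rgs8 kept their calls, and the edgeR adjusted p of the others was 0.0574 for Rgs6, 0.0583 for Fxyd2, 0.0696 for Gnai1, 0.0794 for Lgalsl, 0.0891 for Npy, 0.248 for Gnao1, 0.250 for Egfr and 0.509 for Rgs4.

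The sodium-potassium pump needs an alpha and a beta subunit, and FXYD proteins tune it. Of 9 other subunits and regulators taken up and tested, 2 were higher and none was lower in Foxa2+ CM. Fxyd2, a small regulator of the pump, was at 32.1, 33.0 and 33.6 CPM in Foxa2+ CM and at 6.63, 8.41 and 12.6 CPM in Foxa2- CM. Its log2 fold change was 1.83 (SE 0.22, edgeR adjusted p = 0.00453), beside 1.89 for Atp1b1, and the call was lost in the model of all 10 samples. Atp1b2, another beta subunit, was at 101, 110 and 114 against 65.0, 59.6 and 72.6 CPM (log2 fold change 0.72, SE 0.09, edgeR adjusted p = 0.00479). A further beta subunit, Atp1b3, had about the same level in both CM groups (120 ± 7.37 and 114 ± 8.65 CPM, SD, n = 3).

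Of 13 other RGS genes, 3 were higher in Foxa2+ CM and none was lower. Beside Rgs8, these were Rgs6 at 1.57 against 0.288 CPM (log2 fold change 2.37, SE 0.33, edgeR adjusted p = 0.00731) and Rgs4 at 25.1 against 14.9 CPM (0.76, SE 0.13, edgeR adjusted p = 0.0162). Without Foxa2+ CM replicate 2, none of the 3 passed, and in the model of all 10 samples Rgs6 and Rgs4 did not (edgeR adjusted p = 0.0574 and 0.509). Among 13 G protein alpha subunits, 2 of the Gi/o class on which RGS proteins act were lower and none was higher. Gnai1 averaged 26.9 against 38.6 CPM (log2 fold change -0.51, SE 0.11, edgeR adjusted p = 0.0288), and Gnao1 averaged 6.93 against 13.2 CPM (-0.93, SE 0.16, edgeR adjusted p = 0.015). The call for Gnai1 ended in 5 of 6 fits with a sample left out and that for Gnao1 in 3 of 6.

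Of 5 others of the Dpp4 peptidase family tested, none passed, with Dpp8 at 132 against 133 CPM and Dpp9 at 167 against 163 CPM. Fap, its close relative, had at most 1 count in any CM sample and was listed at 0 elsewhere. Of 6 substrates and partners, Cxcl12, a chemokine that Dpp4 cuts, was lower in Foxa2+ CM, at 1.10, 1.91 and 2.43 CPM against 6.44, 9.60 and 10.9 CPM. Its log2 fold change was -2.29 (SE 0.32, edgeR adjusted p = 0.00735), and it was at 122 and 58.0 CPM in endoderm. Npy, a peptide hormone that Dpp4 also cuts, was higher at 2.44 against 0.376 CPM (2.63, SE 0.62, edgeR adjusted p = 0.047), a call that ended in 5 of 6 fits with a sample left out.

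Fam83b had no relative that passed among 5, with Fam83h at 52.0 against 55.2 CPM and Fam83g at 14.3 against 15.1 CPM. Of 9 casein kinase 1 and EGF receptor genes, Egfr alone was higher, averaging 33.1 against 17.3 CPM (log2 fold change 0.94, SE 0.17, edgeR adjusted p = 0.0167), and it passed in 3 of 6 fits with a sample left out. Of 6 galectin genes, none was higher and Lgalsl, a galectin-like gene, was lower (log2 fold change -0.35, SE 0.08, edgeR adjusted p = 0.0383), which held in 1 of 6 such fits. Lgals1 was at 40.0 against 38.9 CPM, and Lgals3, which gave Lgals3bp its name, at 0.601 against 0.438 CPM.

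None of 12 CNNM and magnesium transport genes and none of 24 SLC35 genes passed. Cnnm2 averaged 13.5 against 14.1 CPM, Cnnm3 113 against 115 CPM and Cnnm4 34.0 against 29.7 CPM. Slc35g1, the paralogue closest by name to Slc35g2, averaged 15.4 against 15.3 CPM, with a log2 fold change of 0.01 (SE 0.20).

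**Figure D4:**
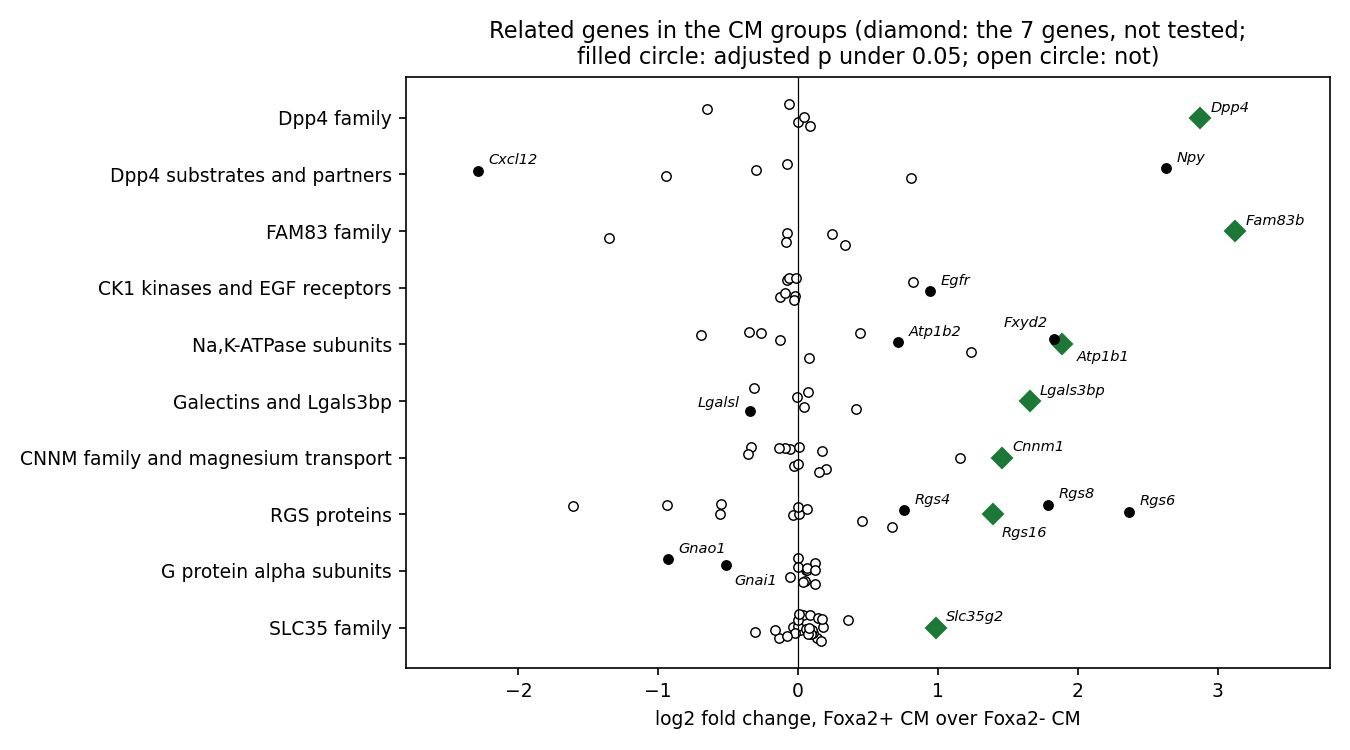
Log2 fold change of Foxa2+ CM over Foxa2- CM for the 7 genes (green diamonds, not tested) and 102 relatives and partners in 10 lists (circles, filled where the adjusted p was under 0.05), with points moved up or down at random within a row to avoid overlap. The 11 filled circles are named, and the other 91 lie mostly near 0.

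Between endoderm and haematopoietic mesoderm, 106 of the relatives and partners were tested, of which 24 were higher in endoderm and 20 lower (41.5%, beside 32.6% of all genes). Among RGS genes Rgs8 was higher in endoderm (log2 fold change 8.34, edgeR adjusted p = 8.66e-06), like Rgs16, whereas Rgs4 (-4.56, edgeR adjusted p = 0.00613), Rgs5 (-2.83) and Rgs6 (-5.26) were lower. Rgs8 had 3 and 2 counts in haematopoietic mesoderm. In endoderm Rgs4 had 1 and 2 counts and Rgs6 had 0 and 1, so the sizes of these changes are uncertain. Fam83g (2.13, edgeR adjusted p = 0.000736) and Fam83h (1.22, edgeR adjusted p = 0.0111) were higher in endoderm, as was Fam83b. Fxyd2 was at 2 counts and 1 count in the endoderm samples and at 4.45 and 16.1 CPM in haematopoietic mesoderm, while Atp1b1 was at 26.4 CPM or more in endoderm. Slc35d3 was lower in endoderm (-2.48, edgeR adjusted p = 0.000363), the direction of Slc35g2, and Slc35g1 was at 39.6 and 39.4 CPM, on average, in the 2 groups.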

How the data were processed

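RNAseq libraries of sorted cells were sequenced as 50 nt single-end reads. Per the labels and the submitters' processing notes, the authors aligned reads to mm10 with STAR 2.5.0a, removed duplicates with Picard, counted with HTSeq 0.6.0 and used DESeq2. The strand setting is not given in the sources used here. The deposited values are raw whole-number counts per gene. Reads counted on genes were 72.2% to 80.5% of the reads that HTSeq listed on a gene, on no gene or as ambiguous.

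From these counts, edgeR 4.0.16 in R 4.3.3 gave TMM factors. CPM used TMM-scaled library sizes, and RPKM divided CPM by exonic length in GENCODE M21. After edgeR's expression filter, the quasi-likelihood test with Benjamini-Hochberg adjustment over all genes was called at 0.05, with the 6 CM samples for the CM contrast and all 10 samples for endoderm against haematopoietic mesoderm. Log2 CPM for correlations had a prior count of 2. Of these steps, only the edgeR fit was tried on simulated counts. DESeq2 1.42.0, other filters and scalings, single left-out samples and a replicate block were tried as alternatives. Replicates differed by more than sampling noise (chi-square over degrees of freedom of 3.72 to 21.5). Limits from 3 counts cover counting error only.

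The 7 members and all gene lists were chosen with earlier results of these data known. Some genes of the lists are not reported here. The genes named are the 7 members, Foxa2, up to 4 called genes per list with the largest CM change, close relatives of a member, the 2 most similar genes and the nearest tested gene on each side. Promoter windows came from RefSeq, where all 7 members matched.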

Additional observations from a re-analysis of the deposited data

How the results depend on the processing

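The direction of the 7 members between the CM groups was fixed by their choice, and their median log2 fold change was 1.58 to 1.80 with 1 sample left out. The number of genes called between the CM groups depended on the setting: 990 became 288 with all 10 samples in 1 model, 2556 with a replicate block, and 234 to 1701 with 1 sample left out (412 without Foxa2+ CM replicate 1, 234 without Foxa2+ CM replicate 2, 414, 239 and 1701 without Foxa2- CM replicates 1, 2 and 3). Relatives and partners called, 11 in all, became 3 with all 10 samples and 22 with the replicate block, and 2 to 16 with 1 sample left out (7 and 2 without Foxa2+ CM replicates 1 and 2, 6 and 4 without Foxa2- CM replicates 1 and 2). The cause was not tested. Same-numbered CM samples deviated together with correlations of 0.620, 0.0898 and 0.698 for replicates 1, 2 and 3. Across numbers, Foxa2+ CM replicate 1 and Foxa2- CM replicate 3 had a correlation of -0.699. Foxa2+ CM replicate 3 and Foxa2- CM replicate 1 had -0.617. Foxa2- CM replicate 2 had 0.468 with Foxa2+ CM replicate 1 and -0.469 with Foxa2+ CM replicate 3. Foxa2+ CM replicate 2 had 0.112 and -0.130 with Foxa2- CM replicates 1 and 3. The labels do not pair the samples, so the main fit had no term for replicate. The low value for replicate 2 does not show that samples were unpaired. The replicate block was fitted as an alternative, and whether same-numbered samples shared a culture or batch was not tested. Between endoderm and haematopoietic mesoderm, 5276 genes became 2675 with only those 4 samples, 5434 with the replicate block and 3932 to 5363 with 1 sample left out, where a lone sample is assumed to vary like the other groups. The 5 members called became 4 to 6. Dpp4 went from 0.68 to between -0.45 and 1.44 (log2) with 1 sample left out, the former without endoderm replicate 2 (edgeR adjusted p = 0.685), and Atp1b1 passed with DESeq2 (adjusted p = 0.0425). Depth limits Fam83b most, with 4 and 8 counts in haematopoietic mesoderm.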
